A study of Rattus norvegicus with 15 samples.

Results

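The comparison set the adult liver of rats whose mothers were short of food in pregnancy and suckling against that of rats whose mothers were short of food in pregnancy alone. Members were chosen by their sample titles and are 6 of the 15 arrays of the series, 3 arrays of each group at day 450 of life. All animals were male Sprague-Dawley offspring, and RNA came from liver. Mothers of the IUCR group (intra-uterine calorie restriction) had 50% of calories withheld from embryonic day 11 to 21. Mothers of the IPCR group (intra-uterine and post-natal calorie restriction) had the same restriction and were restricted again from postnatal day 1 to 21. Both groups therefore carried the prenatal restriction, and the groups differed by the maternal diet during suckling. Control offspring of normally fed mothers at day 450, and control and IPCR offspring at day 21, make up the other 9 arrays. The series design describes replicates as separate littermates without saying how many litters were used, so p-values here measure the spread between these animals. Feeding state and hour of the day at collection are not in the labels used here.

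The liver makes bile acids from cholesterol, glucose from amino acids, and most proteins of blood plasma, and its sex-specific steroid metabolism in the rat follows the pulse pattern of growth hormone. Many of its genes also follow a daily rhythm. In the molecular clock BMAL1, paired with CLOCK or NPAS2, activates the period and cryptochrome genes, the nuclear receptors Nr1d1 and Nr1d2 and the output factor Dbp. Period and cryptochrome proteins then shut BMAL1 and CLOCK down, and NR1D1 represses Bmal1, so the Bmal1 arm and the Per and Dbp arm peak at different times of day. Suckling is a period in which the rat liver matures and changes from a milk diet to solid food.

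Values are log2 intensities, on which a difference of 1 is 2-fold. Of 14506 named genes, 6 passed limma's test at an adjusted p below 0.05 (0.0414%), 5 higher and 1 lower in IPCR liver. Without adjustment 791 genes (5.45%) had p below 0.05 with IPCR higher and 293 (2.02%) with IPCR lower. All 3 IPCR arrays lay above all 3 IUCR arrays for 1139 genes (7.85%) and below them for 481 (3.32%). These shares are the background against which every list below is read. The median difference over all genes was 0.02, and the median standard error (SE) 0.096. Arrays correlated at r of 0.990 to 0.993 within the groups and 0.988 to 0.993 between them, across genes, which are not independent replicates. A difference of at least 1 was measured for 19 genes, of which 4 passed. Defining hepatocyte markers had a mean level of 13.61 to 13.68 on the 6 arrays.

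Cyp7a1, the rate-limiting enzyme of bile acid synthesis, had the smallest p of all genes and rose 3.71-fold in IPCR liver. It measured 9.42, 9.63 and 9.22 in IUCR arrays A, B and C, and 11.48, 10.89 and 11.57 in IPCR arrays A, B and C (probe set 10875324). The groups did not overlap, and the lowest IPCR array stood above every IUCR and control array. The difference was 1.89 (SE 0.25, 95% interval 1.36 to 2.43, limma adjusted p = 0.0243). Controls measured 9.77, 9.64 and 10.69, between the group means but nearer to IUCR.

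Cxcl14, a chemokine, was at 8.16, 8.60 and 8.11 in IUCR liver and at 9.33, 8.98 and 9.13 in IPCR liver (probe set 10793953). It rose by 0.86 (SE 0.12, 95% interval 0.59 to 1.12, adjusted p = 0.0304). Controls measured 8.24, 8.18 and 8.33, inside the IUCR range, and IPCR also passed against them (0.90, SE 0.12, adjusted p = 0.0255), a comparison that uses the same IPCR arrays. Gstm3, a glutathione transferase of the mu class, was at 7.44, 7.42 and 7.72 in IUCR and 9.04, 8.18 and 8.49 in IPCR liver (probe set 10825907). Its difference was 1.04 (SE 0.17, 95% interval 0.67 to 1.40, adjusted p = 0.0472). Transferases of this class are near-identical, so the probes may read more than 1 of them.

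Zfp189, which encodes a zinc finger protein, was at 7.77, 7.55 and 7.72 in IUCR and 8.97, 8.29 and 9.12 in IPCR liver (probe set 10869010). IPCR array B was the lowest of its group and still exceeded the highest IUCR array and the highest control array, which stood at 8.24. The difference was 1.11 (SE 0.18, 95% interval 0.74 to 1.49, adjusted p = 0.0448). Pus3, which makes pseudouridine in transfer RNA, was at 7.24, 7.28 and 7.38 against 7.93, 7.68 and 7.86 (probe set 10908990). This was the smallest of the passing differences, 0.52 (SE 0.08, 95% interval 0.34 to 0.70, adjusted p = 0.0448), on a gene whose control arrays spanned only 7.35 to 7.42.

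Apol3l1, a member of the apolipoprotein L family, was the gene that fell. It was at 9.28, 9.47 and 9.77 in IUCR arrays and 8.19, 8.39 and 8.47 in IPCR arrays (probe set 10897405), a difference of -1.16 (SE 0.18, 95% interval -1.55 to -0.77, adjusted p = 0.0448). Control arrays spread across both groups, at 9.01, 8.27 and 9.20. The mean of the controls lay between the IUCR and IPCR means in 5 of the 6 passing genes, Cxcl14 being the exception, and was nearer to IUCR in 5, Apol3l1 being the exception. Over the 1620 genes whose groups did not overlap, the control mean lay between them in 56.2%, against 27.4% of all genes. A wider gap between groups leaves more room for a mean to fall inside it. The control mean was nearer to IUCR in 60% of all genes and in 65.9% of the 1620.

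**Figure D1:**
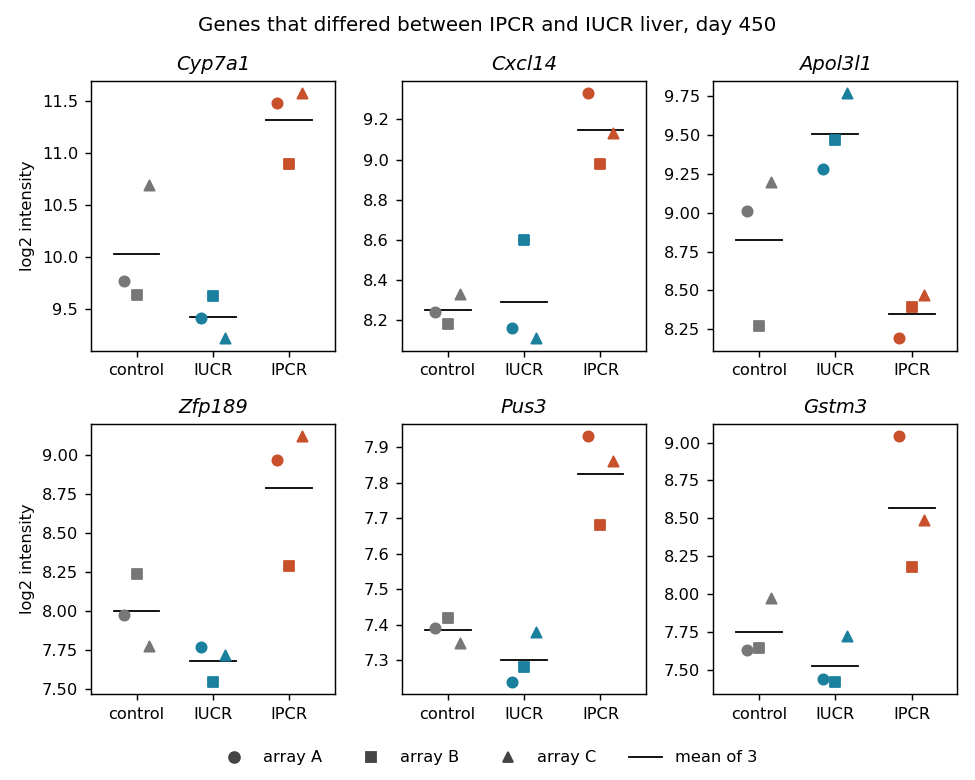
Each panel plots 1 of the 6 passing genes at day 450, with log2 intensity on the vertical axis and the control, IUCR and IPCR groups side by side. Points are single arrays (circle A, square B, triangle C) and lines are means of 3; for Cyp7a1 the IPCR arrays sit between 10.89 and 11.57 and the IUCR arrays between 9.22 and 9.63.

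The calls lay close to the threshold. A fit on the 6 arrays alone passed 0 genes by limma, with 642 higher and 245 lower at unadjusted p below 0.05, and Cyp7a1 came nearest (adjusted p = 0.0505). Quantile normalization also passed 0 genes, with 715 higher and 369 lower at unadjusted p below 0.05 and adjusted p of 0.0616 to 0.0726 for the 6. Leaving out IPCR array B gave 14 passing genes, whereas leaving out IUCR array C, IPCR array A or IPCR array C gave 0 and leaving out IUCR array B gave 2 (Cxcl14 and Cyp7a1). Sizes moved less than calls, since Cyp7a1 differed by 1.76 to 2.10 and Apol3l1 by -1.27 to -1.03 whichever array was left out. The ranges were 0.80 to 1.23 for Gstm3, 0.95 to 1.36 for Zfp189, 0.76 to 1.01 for Cxcl14 and 0.47 to 0.59 for Pus3.

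Below the threshold, the higher genes with the smallest p were Ifrd1, a transcriptional co-regulator, at 0.70 (SE 0.12, adjusted p = 0.0951), Ciapin1 of cytosolic iron-sulfur assembly at 0.44 (SE 0.08) and the clock repressor Cry1 at 0.59 (SE 0.11). Ugt2b1, a steroid glucuronosyltransferase, averaged 10.20 (SD 0.17) in IUCR and 10.93 (SD 0.10) in IPCR liver, without overlap, a difference of 0.73 (SE 0.13, adjusted p = 0.0964). Its IPCR arrays were the more uniform group, and the controls (9.97, 10.03 and 10.08) sat with IUCR. Mettl2, a transfer RNA methyltransferase, differed by 0.42 (SE 0.08, adjusted p = 0.112).

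The largest difference of any gene belonged to Akr1c2, an aldo-keto reductase of steroid metabolism. It was at 8.43, 6.62 and 7.34 in IUCR arrays and 11.41, 9.79 and 11.82 in IPCR arrays, a difference of 3.54 (SE 0.69, 95% interval 2.08 to 5.0). The groups did not overlap, but spread was wide and the adjusted p was 0.127. Control arrays A and B (7.45 and 7.48) matched the IUCR range and control array C (10.58) the IPCR range.

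Noct encodes nocturnin, an enzyme with a strong daily rhythm in liver. It was at 6.16, 6.25 and 6.59 in IUCR and 8.82, 7.19 and 8.31 in IPCR liver, with controls at 6.24, 6.41 and 6.76. Every IPCR array lay above every other day 450 array. The difference of 1.77 (SE 0.34, 95% interval 1.04 to 2.5) had an adjusted p of 0.127. It passed in 1 of the 6 leave-outs, at 0.00596 without IPCR array B, and its adjusted p reached 0.556 in the others, with a difference of 1.42 without IPCR array A.

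On the lower side, 11 genes without overlap were taken by smallest p after Apol3l1, among genes whose higher group mean reached the median gene level. Differences were -0.34 to -1.52 with limma adjusted p of 0.167 to 0.367, and none of the 11 genes passed. They include Nuak1, a kinase related to AMPK, at 7.70, 7.71 and 7.66 in IUCR and 7.23, 7.30 and 7.46 in IPCR liver (-0.36, SE 0.07, adjusted p = 0.167). Zbtb16, a transcriptional repressor that responds to glucocorticoids, had the largest of these differences, -1.52 (SE 0.34), and -0.99 without IUCR array C. IUCR array C was the highest, at 10.73 against 9.06 and 9.21 in arrays A and B, while IPCR (8.27, 8.27 and 7.90) sat with controls (8.37, 8.01 and 8.11). Fam13a had a like order, with IUCR at 7.79, 7.96 and 8.42, IPCR at 7.41, 6.96 and 7.57 and controls at 7.41 to 7.44. Unc5cl, Slc45a3, Mk1 and Dapk2 differed by -0.61, -0.39, -0.36 and -0.38. For Pmm1, a phosphomannomutase, the brighter probe set gave -0.34 and another gave 0.05, so its value depends on the probe set.

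Clock genes were described as 2 arms, and no member passed in either. Of 12 measured genes of the Per and Dbp arm, 11 had a positive difference (57.9% of all genes did). IPCR arrays lay above all IUCR arrays in 5 (7.85% of all genes did) and 0 had the reverse. By limma 9 had unadjusted p below 0.05 with IPCR higher (5.45% of all genes did). The median difference of the arm was 0.44, against 0.02 for all genes. Its mean level was 8.95, 8.78 and 8.68 in IUCR arrays A, B and C, 9.32, 8.97 and 9.35 in IPCR arrays, and 9.21, 9.15 and 8.99 in controls. IPCR thus overlapped the controls on this mean, and IUCR lay below both.

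Dbp, an output factor that BMAL1 and CLOCK drive, was at 11.21, 10.90 and 10.36 in IUCR and 11.76, 11.24 and 11.73 in IPCR liver. The difference was 0.75 (SE 0.21, 95% interval 0.31 to 1.19, adjusted p = 0.395), and controls (11.60, 11.49 and 11.32) lay within the IPCR range. Bhlhe41, a clock repressor also called DEC2, was at 6.34, 6.43 and 6.12 against 7.25, 6.59 and 7.19, a difference of 0.72 (SE 0.16, adjusted p = 0.239). Its IPCR arrays A and C stood well above array B and above all controls, which ran from 6.38 to 6.56.

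Among the period and cryptochrome genes, the repressors of the loop, Cry2 differed by 0.40 (SE 0.11) and Per1 by 0.40 (SE 0.14), both without overlap. Per2 (0.49, SE 0.21) and Per3 (0.51, SE 0.23) overlapped, because IPCR array B measured 8.27 for Per2 and 8.76 for Per3, inside the IUCR range, and Per3 differed by 0.24 without IUCR array C. Wee1, a cell cycle kinase under clock control, was at 6.61, 6.50 and 6.4 in IUCR and 7.02, 6.89 and 7.14 in IPCR liver (0.51, SE 0.18). Its controls, at 7.66, 7.11 and 7.02, were level with or above IPCR. Usp2, a rhythmic deubiquitinase, differed by 0.56 (SE 0.20). The nuclear receptors differed by less, Nr1d1 by 0.19 (SE 0.15) and Nr1d2 by 0.23 (SE 0.09), as did Tef, a relative of Dbp, at 0.20 (SE 0.12), and their groups overlapped. Bhlhe40 was the member below zero (-0.04, SE 0.24).

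In the Bmal1 arm the median difference of the 5 measured genes was -0.18, and 2 had unadjusted p below 0.05, Bmal1 and Cry1. Bmal1 itself was at 7.07, 7.45 and 7.99 in IUCR and 6.24, 7.06 and 6.81 in IPCR liver, with controls at 6.31, 6.53 and 6.62. The IPCR arrays lay just below the IUCR arrays, the gap between the nearest 2 being 7.06 to 7.07, and the difference was -0.80 (SE 0.23, 95% interval -1.30 to -0.31, adjusted p = 0.422). Npas2, a partner of BMAL1, differed by -0.33 (SE 0.22), Nfil3, a repressor at the sites that DBP binds, by -0.18 (SE 0.13) and Clock by -0.06 (SE 0.10), and all 3 overlapped. Cry1, which peaks late in the cycle and is counted in this arm, went the other way. It was at 7.08, 7.12 and 6.92 in IUCR and 7.77, 7.34 and 7.78 in IPCR liver (0.59, SE 0.11, 95% interval 0.36 to 0.81, adjusted p = 0.0951).

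IPCR array B was the lowest of its group in 11 of the 12 genes of the Per and Dbp arm, and IUCR array C the lowest of its own in 7. Without IPCR array B, 11 of the 12 genes had IPCR above IUCR without overlap (17.0% of all genes did so with that array out), and Cry1, Bhlhe41 and Noct passed. Without IPCR array A the count was 5 of 12 (11.9% of all genes) and without IPCR array C 5 of 12 (13.6% of all genes), with arm medians of 0.39 and 0.36.

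**Figure D2:**
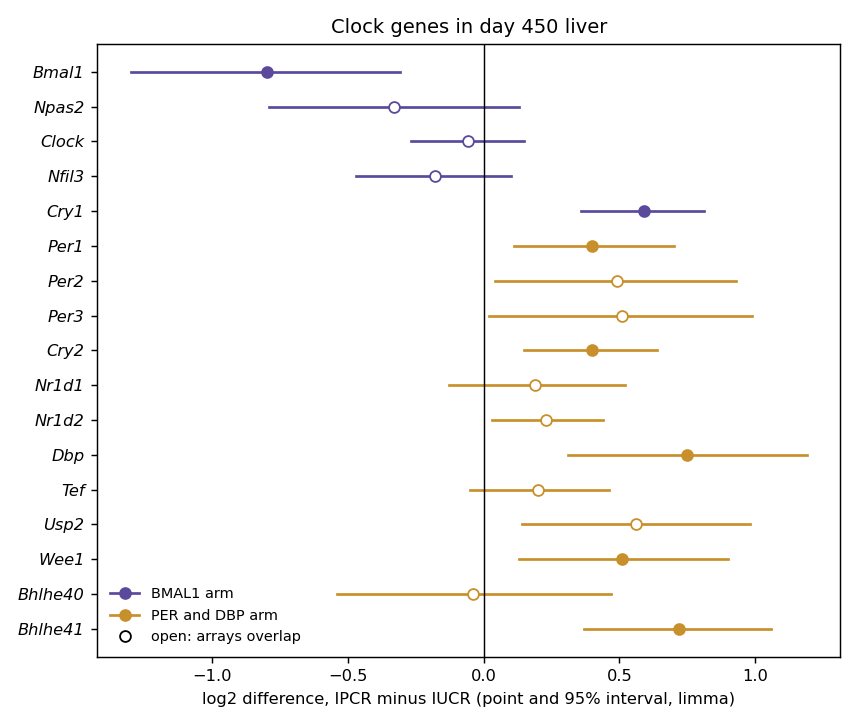
Log2 difference, IPCR minus IUCR at day 450, on the horizontal axis for each measured clock gene, with 95% intervals from limma; filled points are genes whose 3 and 3 arrays do not overlap. Dbp (0.75), Bhlhe41 (0.72) and Cry1 (0.59) lie to the right of zero and Bmal1 (-0.80) to the left.

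Sequences before the start of clock genes are shown because the clock acts through short promoter elements. Bmal1 stood below zero and most of the Per and Dbp arm above it, but Cry1 of the Bmal1 arm stood above as well. Whether promoter elements relate to the differences was not tested. Promoters were taken from the RefSeq table of the rat assembly GRCr8, 250 bases before to 50 after each start, and 16 of 18 genes (the measured clock genes and Noct) were matched. Both strands were searched for the E-box bound by BMAL1 and CLOCK (CACGTG), the D-box bound by DBP and NFIL3 (TTATGTAA or TTATGCAA) and the element bound by ROR and NR1D proteins (TAGGTCA). The E-box stood in 3 of the 16 (Tef, Bhlhe40 and Bhlhe41), the D-box in Per2 alone and the ROR element in Bmal1 alone. Over the 11968 promoters of measured genes the shares were 7.87%, 1.51% and 1.98%, and over all 27457 promoters 6.65%, 1.64% and 2.6%. Of the 6 passing genes 4 were matched, and none of these letters stood in their windows. A match describes the letters and not a bound site. Only these exact letters in this window were searched. A gene without a match may therefore carry variant letters or an element elsewhere. The 250 bases before the start are printed 5′ to 3′ on the strand of the gene with the element in capitals, for Bhlhe41 (chr4:180569356-180569605, minus strand, E-box from base -48), Per2 (chr9:99496994-99497243, minus strand, D-box from base -192) and Bmal1 (chr1:176766078-176766327, plus strand, ROR element from base -16).
Bhlhe41: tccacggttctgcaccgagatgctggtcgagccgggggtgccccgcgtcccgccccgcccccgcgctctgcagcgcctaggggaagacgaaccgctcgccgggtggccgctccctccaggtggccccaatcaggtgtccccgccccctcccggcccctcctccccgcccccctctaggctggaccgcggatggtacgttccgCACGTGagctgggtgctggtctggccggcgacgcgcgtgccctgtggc
Per2: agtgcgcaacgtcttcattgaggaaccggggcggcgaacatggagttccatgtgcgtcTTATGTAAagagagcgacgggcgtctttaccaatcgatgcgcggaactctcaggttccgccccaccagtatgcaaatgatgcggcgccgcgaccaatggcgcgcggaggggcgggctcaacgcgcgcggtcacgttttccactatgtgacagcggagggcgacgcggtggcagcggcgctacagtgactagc
Bmal1: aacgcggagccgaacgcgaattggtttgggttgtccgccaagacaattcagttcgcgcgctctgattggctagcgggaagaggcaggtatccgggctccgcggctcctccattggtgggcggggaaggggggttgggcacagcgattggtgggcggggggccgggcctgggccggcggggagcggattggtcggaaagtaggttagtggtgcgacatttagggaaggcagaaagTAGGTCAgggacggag

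Bile acid genes beside Cyp7a1 did not pass. Cyp8b1, which sets the share of cholic acid, was at 11.87, 11.40 and 12.02 in IUCR and 12.66, 12.06 and 12.38 in IPCR liver (0.60, SE 0.31, adjusted p = 0.684). Nr1h4, the bile acid receptor FXR, was at 10.15, 9.80 and 10.15 against 10.29, 10.27 and 10.46 (0.30, SE 0.13). Both had IPCR above IUCR without overlap. Over the 18 genes of bile acid synthesis and sterol transport the median difference was 0.00, with 3 genes higher without overlap and 2 lower, and 2 of the 18 had unadjusted p below 0.05, Cyp7a1 and Nr1h4.

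Of 18 cholesterol synthesis genes 4 had IPCR above IUCR without overlap and 0 the reverse, yet 0 reached an unadjusted p of 0.05 and the median was 0.08. Fdft1, squalene synthase, was at 10.89, 10.62 and 10.78 in IUCR and 10.96, 10.93 and 11.11 in IPCR liver (0.23, SE 0.23). The SE pools the spread of all 5 groups. In fatty acid and triglyceride synthesis 0 of 20 genes were free of overlap in either direction (median -0.08).

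Fatty acid oxidation had a median of -0.01 over 21 genes, with 0 higher and 2 lower without overlap. Pdk4, the kinase that turns off pyruvate dehydrogenase in fasting, was at 10.10, 10.48 and 9.84 in IUCR and 9.42, 9.53 and 9.28 in IPCR liver (-0.73, SE 0.22, adjusted p = 0.441). Here IUCR was the group apart, since controls (9.54, 9.39 and 9.63) overlapped IPCR. Cd36, a fatty acid transporter, was at 9.16, 10.02 and 8.84 against 8.63, 8.69 and 8.79 (-0.63, SE 0.28), and its controls (9.45, 9.66 and 9.38) sat nearer to IUCR. Without IUCR array B the difference of Cd36 was -0.29. Cyp4a1, a target of the receptor PPAR alpha, differed by -0.45 (SE 0.17) with overlapping arrays.

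Genes of gluconeogenesis and glycogen had a median difference of 0.18 over 16 members, 4 of them with IPCR above IUCR without overlap and 0 the reverse. Tat, tyrosine aminotransferase, was at 11.09, 11.61 and 12.16 in IUCR and 12.96, 12.37 and 12.46 in IPCR liver (0.98, SE 0.22, 95% interval 0.52 to 1.43, adjusted p = 0.237). Controls, at 11.71 to 11.92, lay within the IUCR range. Sds, serine dehydratase, was at 7.23, 7.69 and 7.64 against 9.90, 7.70 and 9.18 (1.40, SE 0.40, adjusted p = 0.422). IPCR array B (7.70) stood next to the highest IUCR array (7.69). The difference was 2.02 without IPCR array B, where it passed (adjusted p = 0.0119), and 0.92 without IPCR array A, and it passed in 1 of the 6 leave-outs, with adjusted p up to 0.801. Got1, aspartate aminotransferase, was at 9.69, 9.93 and 10.13 in IUCR and 11.02, 9.88 and 10.76 in IPCR liver, with IPCR array B inside the IUCR range.

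Periportal genes, which share Sds with that list, had a median of 0.16 over 15 genes, with 3 higher and 0 lower without overlap. Apof, an apolipoprotein, was at 10.20, 11.01 and 10.42 in IUCR and 11.53, 11.13 and 11.35 in IPCR liver (0.79, SE 0.36). Pericentral genes had a median of 0.00 over 14 genes and none without overlap. Glucocorticoid targets were split, with a median of 0.00 over 15 genes, 4 higher without overlap and 2 lower. Sgk1, a kinase induced by corticosteroids, was at 8.79, 8.69 and 8.73 against 9.49, 9.54 and 9.89 (0.90, SE 0.30), while Zbtb16 stood the other way.

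In insulin and IGF signalling 3 of 16 genes were higher without overlap and 2 lower (median -0.01). Irs1, the adaptor of the insulin receptor, was at 9.13, 9.0 and 9.14 in IUCR and 9.32, 9.31 and 9.48 in IPCR liver (0.28, SE 0.08, adjusted p = 0.367), above controls at 8.95 to 9.04 as well. Pik3r1, the regulatory subunit of phosphoinositide 3-kinase, differed by 0.42 (SE 0.16), and Grb10, an inhibitor of the insulin receptor, by -0.20 (SE 0.11). In xenobiotic metabolism 2 of 24 genes were higher without overlap and 0 lower (median 0.03), among them Alas1, the rate-limiting enzyme of haem synthesis. Alas1 was at 10.75, 10.48 and 10.77 in IUCR and 11.58, 10.98 and 11.49 in IPCR liver (0.68, SE 0.15, adjusted p = 0.239), and the control mean was 11.12. Oxidative phosphorylation subunits, at a median of 0.02 over 34 genes, had 1 higher and 0 lower. Array B was the lowest of its own group in 31 of these 34 genes among IUCR arrays and in 31 among IPCR arrays.

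In heat shock chaperones 6 of 16 genes had IPCR above IUCR without overlap and 0 the reverse, the next highest share on that side after the Per and Dbp arm, and the median was 0.24. None passed, and 7 had unadjusted p below 0.05 with IPCR higher and 1 with IPCR lower. Dnajb1, a co-chaperone of HSP70, was at 8.97, 9.07 and 8.99 in IUCR and 9.49, 9.26 and 9.19 in IPCR liver (0.31, SE 0.10, adjusted p = 0.449). Dnaja1 differed by 0.27 (SE 0.11) and Bag3 by 0.29 (SE 0.11). Differences were small, and IPCR array B was again the lowest of its group in 12 of the 16 genes. In the unfolded protein response 4 of 19 genes were higher and 0 lower (median 0.09), among them the stress factor Atf4, at 9.58, 9.88 and 9.92 against 10.25, 10.09 and 9.99 (0.32, SE 0.10). Antioxidant genes had 3 of 19 higher and 0 lower (median 0.06).

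Acute phase, antigen presentation, interferon and immediate early genes stood on the other side, and none of their members passed by limma. At unadjusted p below 0.05 with IPCR lower stood 3 acute phase, 3 antigen presentation, 5 interferon and 3 immediate early genes, and with IPCR higher 1 interferon and 2 immediate early genes. Among 18 acute phase genes 7 had IPCR below IUCR without overlap (3.32% of all genes did) and 1 above, with a median of -0.15. Lbp, which carries bacterial lipopolysaccharide, was at 11.93, 12.26 and 12.28 in IUCR and 11.80, 11.65 and 11.73 in IPCR liver (-0.43, SE 0.19). Socs3, the feedback inhibitor of cytokine signalling, was at 7.87, 8.09 and 7.67 against 7.48, 7.57 and 7.34 (-0.41, SE 0.10, adjusted p = 0.314), and controls (7.97, 7.85 and 7.96) were level with IUCR. Lcn2, an acute phase protein of neutrophils and hepatocytes, varied widely, at 7.89, 9.03 and 9.84 in IUCR and 8.03, 7.32 and 7.46 in IPCR liver (-1.31, SE 0.57), and overlapped.

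For antigen presentation 5 of 16 genes were lower without overlap and 0 higher (median -0.15). Tap1, which moves peptides to class I molecules, was at 8.88, 9.15 and 9.11 in IUCR and 8.40, 8.74 and 8.62 in IPCR liver (-0.46, SE 0.12, adjusted p = 0.367). Controls, at 9.07 to 9.18, were with IUCR. Its partner Tapbp differed by -0.27 (SE 0.09) and the immunoproteasome subunit Psmb10 by -0.20 (SE 0.09), the latter by -0.10 without IUCR array B. Interferon genes had 3 of 20 lower and 0 higher (median -0.23). Irf1, a factor induced by interferon, was at 7.68, 7.88 and 7.72 against 7.23, 7.61 and 7.43 (-0.34, SE 0.10). Oas1a, an antiviral enzyme, was at 9.05, 8.97 and 8.91 against 7.84, 8.51 and 8.81 (-0.59, SE 0.21, and -0.32 without IPCR array A). IPCR array A was the lowest of its group in 19 of the 20 interferon genes, and without it the median was -0.08. Stat2 went against the list, at 0.30 (SE 0.11).

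Immediate early genes, which respond to growth factors and stress, had 5 of 14 lower without overlap and 1 higher (median -0.18). Junb, a subunit of the factor AP-1, was at 8.10, 8.31 and 8.10 in IUCR and 7.66, 7.80 and 7.81 in IPCR liver (-0.41, SE 0.09, adjusted p = 0.237), with controls at 8.23 to 8.32. IPCR was thus below both other groups. Gadd45g, a stress gene, was at 8.12, 7.98 and 7.67 against 6.86, 7.36 and 6.87 (-0.89, SE 0.27), and its controls ran from 7.35 to 8.63. Ccn1, a matrix protein, was the gene on the higher side (0.41, SE 0.18), at 8.31, 8.38 and 8.50 against 8.61, 9.30 and 8.52, and its difference was 0.17 without IPCR array B.

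Marker lists of other cells were examined beside these genes. Macrophage markers had a median of -0.07 over 9 genes and neutrophil markers -0.05 over 5, T and NK cell markers 0.02 over 7 and B cell markers 0.01 over 3, and of these 4 lists 1 gene, Cd8a, was free of overlap (0.17, SE 0.08, and 0.06 without IPCR array C). Of 8 hepatocyte markers 3 had IPCR below IUCR without overlap (Apoa1, Fgb, which is also an acute phase gene, and Tf, the last named after its values were seen) and 0 above, though the median was -0.03. All 5 measured cholangiocyte markers had a negative difference (6108 of all 14506 genes did), with a median of -0.15, and -0.02 without IUCR array C. Of these 1, Krt7, was without overlap (-0.19, SE 0.08). IUCR array A was the lowest of its group in all 5. The cholangiocyte list averaged 6.94, 7.21 and 7.44 in IUCR arrays A, B and C and 6.98 to 7.13 in IPCR arrays. The macrophage list averaged 9.18 to 9.47 and 9.01 to 9.39. In a bulk liver sample fewer cells of a type and less RNA per cell cannot be told apart, and the part of cell makeup in the acute phase and immune lists was not tested. Inflammation and fibrosis genes had a median of 0.02 over 20 genes, with none free of overlap.

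**Figure D3:**
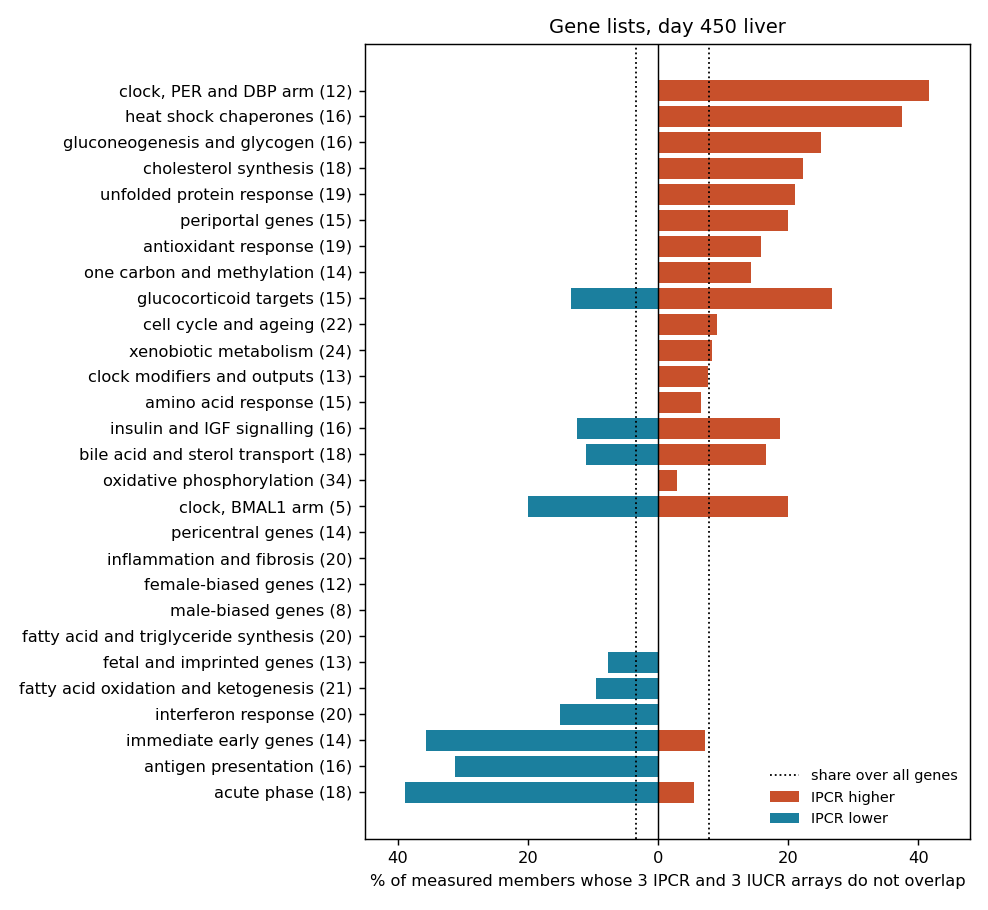
For each pathway gene list (measured members in parentheses), the horizontal axis gives the percentage of members whose 3 IPCR arrays lie wholly above (right) or below (left) the 3 IUCR arrays at day 450. Cell type marker lists are not plotted. Dotted lines mark the shares over all genes, 7.85% and 3.32%. The Per and Dbp arm (5 of 12) and heat shock chaperones (6 of 16) reach farthest to the right, and acute phase genes (7 of 18) farthest to the left.

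Single arrays set some of the largest differences. IUCR array B stood apart in sex-biased genes, whose 8 male-biased members averaged 10.46 in it against 12.32 and 12.22 in IUCR arrays A and C and 12.08 to 12.35 in IPCR arrays. Control array C was low as well, at 11.23 against 12.09 in control array A. Hsd3b5, a male-biased steroid enzyme, was at 12.41, 9.36 and 12.33 in IUCR and 12.41, 12.22 and 12.56 in IPCR liver with controls at 12.29, 12.20 and 11.28 (1.03, SE 0.55, and 0.03 without IUCR array B). Cyp3a2 was at 13.24, 9.99 and 12.59 against 12.50, 12.88 and 13.28. Cyp2c12, the female-biased counterpart, was at 8.98, 12.01 and 9.84 against 8.48, 10.01 and 9.33 (-1.01, SE 0.60, and -0.14 without IUCR array B), and Trim24 at 7.32, 9.19 and 7.05 against 7.84, 7.40 and 7.51. The female-biased list averaged 9.63 in IUCR array B against 8.96 and 8.74 in IUCR arrays A and C, but it did not move as 1. Array B was the lowest IUCR array in 2 of the 12 genes, Hao2 (11.40, 9.41 and 11.15) and Fmo1 (10.61, 9.86 and 10.45). Without IUCR array B the median of the male-biased list was -0.08 in place of 0.40, and that of the 12 female-biased genes 0.02 in place of -0.15. No sex-biased gene was free of overlap with all arrays in.

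IPCR array C stood apart in markers of pancreatic acinar cells, which averaged 8.64 in it and 6.46 to 6.61 in the other 5 arrays. Amy2a3, an amylase, was at 10.06 there against 6.44 and 6.59 in IPCR arrays A and B and 6.34 to 6.46 in IUCR arrays (1.28, SE 0.61). Cpa1, a carboxypeptidase, was at 8.60 against 5.6 and 5.83. Prss1, a trypsinogen, was at 7.68 against 6.42 and 6.54. All 4 measured markers of the list had a positive difference (57.9% of all genes did), and its median was 0.81 with array C and 0.08 without it. Without IPCR array C the 6 passing genes kept differences of 1.76 (Cyp7a1), 0.87 (Cxcl14), 0.95 (Zfp189), 0.50 (Pus3), 1.08 (Gstm3) and -1.22 (Apol3l1), with adjusted p of 0.173 to 0.204.

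**Figure D4:**
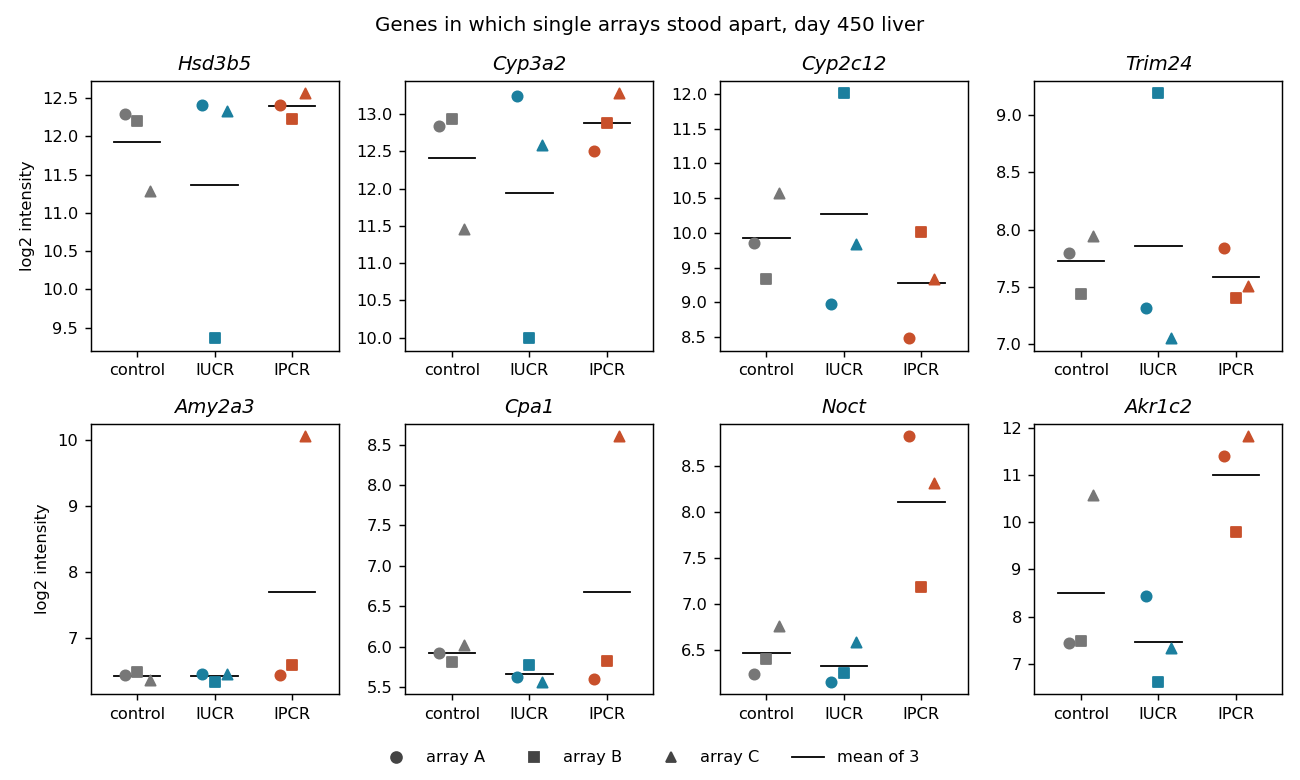
Log2 intensity on the vertical axis for 8 genes in which single arrays stood apart, with control, IUCR and IPCR arrays at day 450 side by side (circle A, square B, triangle C, line the mean of 3). IUCR array B lies low for Hsd3b5 (9.36) and Cyp3a2 (9.99) and high for Cyp2c12 (12.01) and Trim24 (9.19), IPCR array C lies high for Amy2a3 (10.06) and Cpa1 (8.60), and IPCR array B is the lowest of its group for Noct (7.19) and Akr1c2 (9.79).

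At day 21, when restriction through suckling ended, 1396 genes (9.62%) passed between IPCR and control liver. The groups of that comparison share no array with the groups compared at day 450. Both comparisons came from the same fit over all arrays, so each gene's spread was shared and they are not independent. How far this shared spread affects the shares below was not tested. Of the 382 genes that rose at day 21, 73.3% had a positive difference between IPCR and IUCR at day 450, against 57.9% of all genes. IPCR arrays lay above IUCR arrays without overlap for 16.2% of them (7.85% of all genes) and below for 2.62% (3.32%). The 1014 genes that fell at day 21 were close to the background, with 57.0% positive, 7.50% above without overlap and 4.54% below. Within genes brighter than the median the share above without overlap was 19.8% for those that rose at day 21 against 10.9% of all such genes, and under quantile normalization it was 16.4% against 7.80%.

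Both tests were passed by 2 genes, by 1 without IUCR array A, by 6 without IPCR array B and by 0 without any other array of the 6. Zfp189 rose at day 21 (0.76, SE 0.18, adjusted p = 0.0133) as it did at day 450, and Apol3l1 fell at both ages (-0.67, SE 0.18, adjusted p = 0.0313 at day 21). The other genes with the smallest day 450 p among those that passed at day 21 were Ifrd1 (0.79 at day 21, SE 0.12), Noct (3.14, SE 0.34), Tat (1.5, SE 0.22) and Nuak1 (-0.27, SE 0.07). Each of these 4 had the same sign at day 450 without passing there. Cyp7a1 did not pass at day 21 (0.60, SE 0.25, adjusted p = 0.165), and neither did Cxcl14 (0.28, SE 0.12), Gstm3 (0.22, SE 0.17) or Pus3 (0.06, SE 0.08). Dbp differed by 2.19 at day 21 and 0.75 at day 450, and Bmal1 by -2.07 and -0.80. The day 21 comparison is with control and the day 450 one with IUCR, so the sizes do not measure the same contrast. Against control at day 450, IPCR differed by 0.10 for Dbp (SE 0.21) and by 0.21 for Bmal1 (SE 0.23), the latter opposite in sign to day 21. IUCR differed from control by -0.65 for Dbp and 1.02 for Bmal1, and none of these differences passed.

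**Figure D5:**
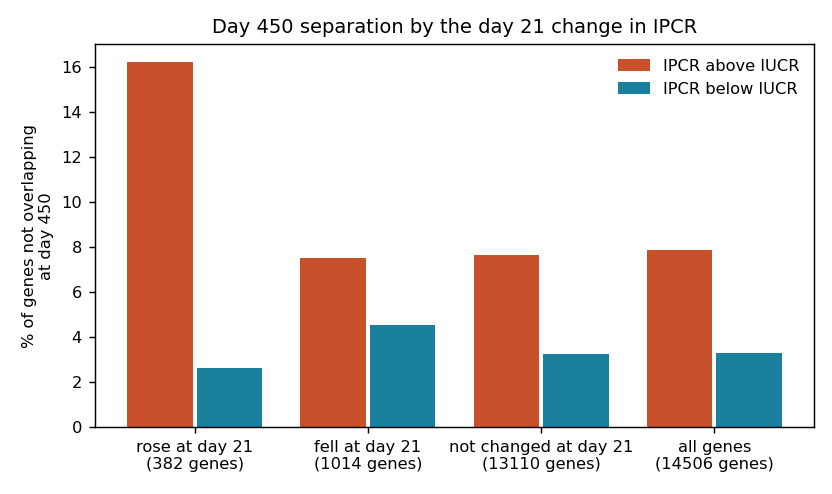
Percentage of genes (vertical axis) whose 3 IPCR arrays lie wholly above or wholly below the 3 IUCR arrays at day 450, for genes grouped by their change between IPCR and control at day 21. Of the 382 genes that rose at day 21, 16.2% lie above, against 7.85% of all genes.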

How the data were processed

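Liver RNA of 15 rats was hybridised to Affymetrix Rat Gene 1.0 arrays, 1 array per animal. The deposited values are log2 intensities that the authors normalized by RMA in Affymetrix Expression Console, per the submitters' processing notes; the sources used here give no version or genome build. RMA brings the arrays' distributions close together, so a shift shared by most genes would be lost. Interquartile ranges still ran from 2.15 (day 21 IPCR array A) to 2.45 (day 450 IPCR array C), and medians from 7.11 to 7.24. No background call comes with the values, and levels near the lower quartile of genes (6.49) may be background. Of 29215 probe sets, 15310 carry 1 gene symbol, 323 several and 13582 none in the platform annotation; for 527 genes with several probe sets the brightest was used, leaving 14506 genes. The fit of group means took in all 15 arrays (R 4.3.3, limma 3.58.1, eBayes, 10 residual degrees of freedom), and p was adjusted by Benjamini and Hochberg over all genes; 0.05 was the threshold. The script was tested on simulated data. Scan batches are not in the sources used here and were not tested, and the number of arrays limits precision.

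Groups did not overlap where all 3 arrays of 1 lay beyond all 3 of the other. Named genes were every passing gene, the smallest p without overlap to make 12 in each direction, clock genes, the 3 smallest p of each of 39 gene lists, sex-biased genes, and 6 genes that passed at day 21. Genes taken to make 12 also needed a higher group mean at or above the median gene level (7.53). Outside the lists, locus-number symbols and smell, taste and vomeronasal receptor genes were not taken. Members, lists and rules were chosen with earlier results of these data known. Promoter sequences are those of RefSeq. Alternatives covered samples in the fit, normalization, dim genes, probe sets, moderation, threshold, the replicate letter and each array left out. Array interquartile range as a covariate was added after seeing the data.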

Additional observations from a re-analysis of the deposited data

How the results depend on the processing

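The count of 6 passing genes did not hold under most alternatives. It was 0 on the 6 arrays alone, on the 9 arrays of day 450 (limma, 666 higher and 248 lower at unadjusted p below 0.05), under quantile normalization and with all 29215 probe sets adjusted together (2286 at unadjusted p below 0.05, smallest adjusted p 0.0843). It was 2 with arrays centred on their median, 1 with trend and robust moderation (Cxcl14), 3 with array interquartile range as a covariate, an alternative chosen after seeing the data, and 10 at an adjusted p below 0.10. It was 4 among genes above the median level and 6 with the mean of probe sets. Leaving out 1 array at a time gave 0 to 14. Fewer arrays leave fewer degrees of freedom; otherwise the cause was not tested. With the replicate letter as a block 3 genes passed, Cxcl14, Cyp7a1 and Ifrd1. Same-letter arrays of the 2 groups correlated at -0.01, 0.18 and 0.19 in their deviations, the values for B and C being the highest of the 9. As the value for A was below 0.1 the letters were not taken as pairs, and whether they mark a shared factor was not tested.

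Genes without overlap numbered 988 in place of 1620 when only the 7253 genes above the median level were kept, with 80.4% higher in place of 70.3%, and 2656 to 3786 when 1 array was left out, since fewer arrays overlap less. The higher share was 63.1% under quantile normalization. Genes passing at both ages numbered 2, and 0 on the 6 arrays alone, on the 9 arrays of day 450, with centred arrays, under quantile normalization and with trend and robust moderation; 1 with the replicate block or the interquartile range; and 0 to 6 leaving out 1 array.

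Leaving out 1 array moved the difference of 36 of 89 named genes by over 1.5 times, 0 of them passing genes. Of the 89, 5 changed sign when 1 array was left out, none of them passing. Bhlhe40 ranged from -0.178 to 0.0519, Clock from -0.153 to 0.0647, Cyp3a2 from -0.0312 to 1.59, Dhrs7l1 from -0.0623 to 1.99 and Trim24 from -0.672 to 0.40. For Cyp3a2, Dhrs7l1 and Trim24 the sign turned without IUCR array B. List medians moved by more than the spread between arrays in 12 of 583 cases, 9 of them with an array left out. Among the 12 were cholesterol synthesis at 0.01 with the interquartile range as a covariate and fatty acid oxidation at -0.16 without IUCR array B. An array that stands apart widens this spread, so the count can miss lists that depend on it. Not counted were male-biased genes (0.40 to -0.08 without IUCR array B) and pancreatic acinar markers (0.81 to 0.08 without IPCR array C). The interferon list (-0.23 to -0.08 without IPCR array A) was not counted either. The median of the Per and Dbp arm ran from 0.36 to 0.55 over all alternatives.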

Other observations

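Amino acid and one-carbon genes added few separated members. Trib3, a target of the stress factor ATF4, was at 6.69, 6.90 and 6.75 in IUCR and 7.26, 6.91 and 6.97 in IPCR liver (0.26, SE 0.11), the 1 gene of 15 in the amino acid response without overlap. Mtr, methionine synthase, was at 9.03, 9.23 and 9.19 against 9.31, 9.35 and 9.38 (0.19, SE 0.09). Mat2a, which makes S-adenosylmethionine, was at 8.98, 8.95 and 9.25 against 9.47, 9.25 and 9.47 (0.34, SE 0.13), and its other probe set gave 0.35. Among 22 cell cycle and ageing genes Gadd45a, a stress gene, was at 9.51, 9.93 and 8.75 against 8.89, 8.57 and 8.89 (-0.61, SE 0.25), and overlapped. None of these 4 genes passed.

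The following genes were chosen after their values were seen, because the difference was at least 1 or because 1 animal stood far from its group, and none passed. Wfdc21, a whey acidic protein homolog, was at 8.87, 8.86 and 8.84 in IPCR arrays but at 9.06, 10.62 and 10.39 in IUCR and 11.35, 9.46 and 10.80 in control arrays (-1.17, SE 0.43, adjusted p = 0.523). Aox1, aldehyde oxidase, was at 9.61, 9.32 and 9.76 in IPCR and 9.55, 11.56 and 11.68 in IUCR liver, so IUCR array A sat with IPCR (-1.36, SE 0.40, adjusted p = 0.422). Slc2a12, a glucose transporter, was at 6.68, 7.09 and 6.39 in IUCR and 7.61, 8.02 and 7.80 in IPCR liver (1.09, SE 0.28, adjusted p = 0.367). Ugt2b was at 12.46 and 12.65 in IUCR arrays A and B and 7.58 in array C, and at 12.17, 5.90 and 12.25 in controls, while all 3 IPCR arrays lay between 12.39 and 13.01, so its difference of 1.85 (SE 1.39) rested on 1 animal. Dhrs7l1 was likewise at 7.39 in IUCR array B and 7.82 in control array C, against 10.18 to 11.62 in the other 7 arrays of day 450.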
